A study of Homo sapiens with 6 samples.

Results

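The set examined was 98 cadherin and protocadherin genes, out of 20033 protein-coding genes of the GENCODE annotation on hg38. Their symbols begin with CDH and a number, PCDH, CELSR, FAT and a number, or DCHS. The clustered protocadherins were counted as 1 locus each (PCDHA with 15 genes, PCDHB with 16 and PCDHG with 22), which left 48 loci on 15 chromosomes. A member peak was any peak touching at least 1 base of these gene bodies, and 92 peaks did so across 4 peak lists.

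The study asked where 82-kDa choline acetyltransferase (ChAT), a form of the acetylcholine-synthesising enzyme found in the nucleus, and SATB1, a protein that anchors A/T-rich DNA in the nuclear matrix, lie on chromatin before and after exposure to amyloid-β (Aβ) oligomers. ChIP-seq was performed in SH-SY5Y neuroblastoma cells that stably expressed heterologous 82-kDa ChAT in every group and had been differentiated for 3 d with retinoic acid. Cells received vehicle or 100 nM oligomeric Aβ1-42 for 4 h, with cells of 3 plates joined per treatment. There was 1 library for each protein and treatment, so no comparison has a replicate check and no test is given; intervals are exact 95% intervals that cover counting error only.

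Cadherins are calcium-dependent adhesion proteins with repeated extracellular domains. Classical cadherins bind catenins inside the cell and hold junctions and synapses together, whereas protocadherins act mainly in the nervous system, where the clustered genes give single neurons distinct surface identities. The FAT, Dachsous (DCHS) and CELSR proteins are very large relatives that orient cells within a tissue.

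The sequences of 7 peaks are shown first because the results below refer to them. Each is printed 5′ to 3′ on the plus strand of hg38. The first 2 hold an inverted repeat, which is a pair of arms where one is the exact reverse complement of the other, and capitals mark the arms. The next 4 are tandem repeats, and capitals mark the first repeat unit. The last is the member peak of highest score, and capitals mark an A/T-rich stretch around a single C.
CDH18 intron 2 (SATB1, Aβ, chr5:19914468-19914603): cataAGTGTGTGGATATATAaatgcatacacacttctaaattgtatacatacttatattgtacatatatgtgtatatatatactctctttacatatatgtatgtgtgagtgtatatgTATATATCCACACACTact
CDH18 intron 3 (82-kDa ChAT, vehicle, chr5:19803325-19803469): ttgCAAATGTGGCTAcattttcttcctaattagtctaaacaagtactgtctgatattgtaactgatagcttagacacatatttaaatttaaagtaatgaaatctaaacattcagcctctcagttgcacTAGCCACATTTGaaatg
CDH5 intron 2 (SATB1, vehicle, chr16:66380205-66380329): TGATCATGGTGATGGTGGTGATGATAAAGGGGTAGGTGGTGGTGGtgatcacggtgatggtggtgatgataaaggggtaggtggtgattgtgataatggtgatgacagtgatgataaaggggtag
CDH4 intron 2 (82-kDa ChAT, vehicle, chr20:61492138-61492225): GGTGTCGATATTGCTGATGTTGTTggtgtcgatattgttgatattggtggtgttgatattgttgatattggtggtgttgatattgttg
CDH13 intron 8 (82-kDa ChAT, vehicle, chr16:83657858-83658134): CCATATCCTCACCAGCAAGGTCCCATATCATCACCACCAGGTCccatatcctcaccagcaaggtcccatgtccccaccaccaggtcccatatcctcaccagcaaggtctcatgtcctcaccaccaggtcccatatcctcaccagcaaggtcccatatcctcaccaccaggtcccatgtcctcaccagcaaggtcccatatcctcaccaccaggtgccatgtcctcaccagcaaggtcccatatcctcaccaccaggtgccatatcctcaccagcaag
CDH15 intron 5 (82-kDa ChAT, vehicle, chr16:89186074-89186336): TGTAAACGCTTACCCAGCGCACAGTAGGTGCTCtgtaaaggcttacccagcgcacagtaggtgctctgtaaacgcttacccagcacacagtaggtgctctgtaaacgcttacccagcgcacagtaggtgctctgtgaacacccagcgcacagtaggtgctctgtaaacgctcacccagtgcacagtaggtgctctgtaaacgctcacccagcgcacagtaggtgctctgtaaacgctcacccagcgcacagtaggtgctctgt
CDH11 intron 1 (82-kDa ChAT, vehicle, chr16:65086840-65086896): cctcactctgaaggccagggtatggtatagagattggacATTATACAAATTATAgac
The CDH18 intron 2 stretch was a peak of both proteins after Aβ-exposure, and the CDH18 intron 3 stretch was a peak of 82-kDa ChAT after both treatments. The CDH5, CDH4 and CDH15 stretches were peaks of both proteins after vehicle treatment.

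In the 48 loci, 82-kDa ChAT had 34 peaks after vehicle treatment compared to 24 after Aβ-exposure, and SATB1 had 12 peaks after vehicle treatment compared to 22 after Aβ-exposure. The loci cover 14.07 Mb, or 1.078% of all protein-coding gene sequence, so the number of peaks expected from length alone can be set beside each count. Here the expected number is the density of the same list over all protein-coding gene bodies multiplied by the length of the loci. It for 82-kDa ChAT was 29.4 with vehicle and 29 with Aβ, and for SATB1 it was 11.2 with vehicle and 29.9 with Aβ. The ratio of observed to expected was 1.16 (0.80 to 1.61) and 0.826 (0.530 to 1.23) for 82-kDa ChAT, and 1.07 (0.553 to 1.87) and 0.737 (0.462 to 1.11) for SATB1, vehicle first. All 4 intervals include 1, so for the 48 loci as a whole no departure from length was detectable.

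Peaks touched 15 of the 48 loci (31.2%) for 82-kDa ChAT after vehicle treatment, beside 10.5% of all protein-coding genes. They touched 15 loci for 82-kDa ChAT after Aβ-exposure, beside 11.1% of all genes, 11 loci (22.9%) for SATB1 after vehicle treatment, beside 4.83%, and 15 loci for SATB1 after Aβ-exposure, beside 12%. These larger shares go with the size of the genes, since the median locus was 137 kb long and the median protein-coding gene 27.5 kb. With peaks spread evenly over gene sequence, 16.1, 16.0, 8.48 and 16.2 of the 48 loci would hold a peak in the same order of lists, close to the numbers found. Among the 9 loci over 500 kb, 5 had a ChAT peak after vehicle treatment and 6 after Aβ-exposure, where 72.8% and 75.9% of all genes over 500 kb did. For SATB1, 5 of these 9 had a peak after vehicle treatment and 6 after Aβ-exposure, where 47.7% and 66.3% of all such genes did.

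**Figure D1:**
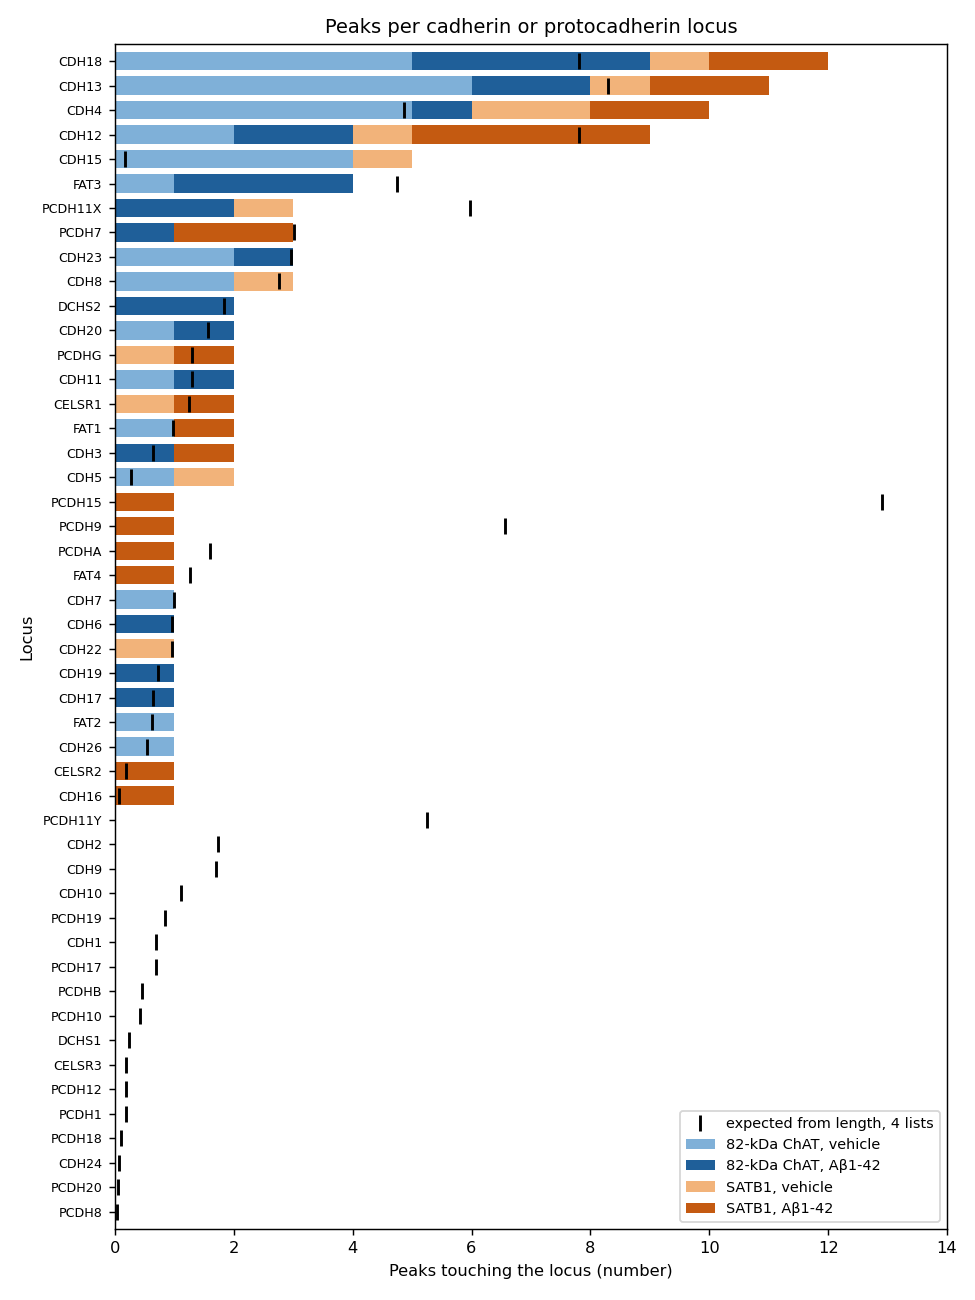
Peaks touching each of the 48 loci (x axis, number), stacked by protein and treatment, with a black tick at the number expected from the length of the locus over the 4 lists. CDH18, CDH13, CDH4 and CDH12 head the plot with 12, 11, 10 and 9 peaks, CDH15 had 5 where 0.168 was expected, and PCDH15 had 1 where 12.9 was expected.

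Within the even total, counts summed over the 4 lists lay above expectation in the CDH genes and below it in the protocadherin loci. The 23 CDH genes, which cover 6.88 Mb, held 68 peaks over the 4 lists where 48.7 were expected (ratio 1.40, 1.09 to 1.77). Without CDH15, a short gene with 5 peaks, they held 63 where 48.5 were expected (ratio 1.30, 0.998 to 1.66). The 16 protocadherin loci, which cover 5.59 Mb, held 11 peaks where 39.6 were expected (ratio 0.278, 0.139 to 0.497). The 9 FAT, DCHS and CELSR genes held 13 where 11.3 were expected (ratio 1.15, 0.612 to 1.96). A peak of any list touched 18 of the 23 CDH genes, 6 of the 16 protocadherin loci and 7 of the 9 others, 31 loci in all, beside 26.9% of all protein-coding genes. With peaks spread evenly over gene sequence, 14.5 CDH genes, 8.76 protocadherin loci and 4.90 of the others would hold one. The split by family was chosen after the counts were seen, and peaks of different lists that overlap were counted separately in these sums.

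The gap between the families was widest for 82-kDa ChAT after vehicle treatment. In that list the CDH genes had 31 peaks where 14.4 were expected (ratio 2.15, 1.46 to 3.06), while the protocadherin loci had 0 where 11.7 were expected, a count whose interval allows a ratio of up to 0.315. After Aβ-exposure the CDH genes had 16 peaks of 82-kDa ChAT where 14.2 were expected and the protocadherin loci had 3 where 11.5 were expected. SATB1 had 9 peaks in the CDH genes after vehicle treatment (5.48 expected) and 12 after Aβ-exposure (14.6 expected), and 2 (4.45 expected) and 6 (11.9 expected) in the protocadherin loci. Both SATB1 intervals for the protocadherins include 1.

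**Figure D2:**
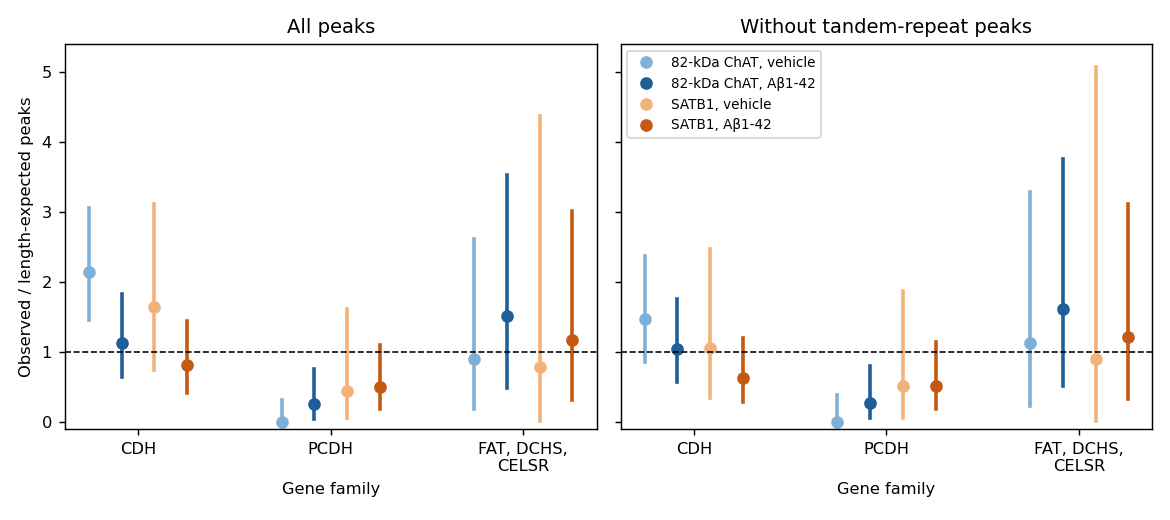
Observed over length-expected peaks (y axis, ratio) for the CDH genes, the protocadherin loci and the FAT, DCHS and CELSR genes in each list, with all peaks (left) and without tandem-repeat peaks (right). Points are ratios, vertical lines exact 95% Poisson intervals for counting error, and the dashed line is a ratio of 1. The CDH ratio for 82-kDa ChAT after vehicle treatment is 2.15 on the left and 1.48 on the right, while the protocadherin ratio of that list is 0 in both.

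Summed over the 4 lists, the count in the CDH genes was close to the expected number once tandem repeats were left out. A peak was called a tandem repeat when it matched itself at 70% or more of the bases compared after a shift of 10 to 100 nt. Only bases that still overlapped after the shift were compared. In all, 23 of the 92 member peaks were of this kind, all of them in CDH genes, namely 9 in CDH4, 5 each in CDH13 and CDH15, 2 in CDH5 and 1 each in CDH12 and CDH8. Without these peaks, and with the density recomputed in the same way, the CDH genes held 45 peaks where 43.7 were expected (ratio 1.03, 0.752 to 1.38). That sum joins lists on either side of 1, with 17 peaks of 82-kDa ChAT with vehicle where 11.5 were expected (ratio 1.48, 0.864 to 2.38) and 9 of SATB1 with Aβ where 14.1 were expected (ratio 0.637, 0.291 to 1.21). The protocadherin loci still held 11, where 35.5 were expected (ratio 0.310, 0.155 to 0.554). This class of peak was defined after the sequences had been seen.

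Tandem repeats were more frequent in member peaks than in peaks of other genes in the vehicle list of 82-kDa ChAT, at 14 of 34 peaks (41.2%, 24.6 to 59.3) compared to 20.1% (18.6 to 21.6). For SATB1 after Aβ-exposure they made up 3 of 22 peaks (13.6%, 2.91 to 34.9) compared to 3.13% in other genes, a value at the lower end of that interval. The remaining lists had 2 of 24 (8.33%) for 82-kDa ChAT after Aβ-exposure and 4 of 12 (33.3%, 9.92 to 65.1) for SATB1 after vehicle treatment, compared to 5.92% and 13.5% in other genes, and their intervals include the share in other genes. Neighbouring peaks of 1 repeat array are not independent of each other, so these intervals are narrower than the true uncertainty.

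Among the type I classical cadherins, which bind β-catenin and form adherens junctions, peaks were concentrated in 2 genes. CDH4 (R-cadherin, named for the retina), a gene of 688 kb on chromosome 20, had 5 peaks of 82-kDa ChAT after vehicle treatment, 1 after Aβ-exposure, 2 of SATB1 after vehicle treatment and 2 after Aβ-exposure. These 10 peaks compare to 4.87 expected (ratio 2.05, 0.985 to 3.78). That interval includes 1, as do those of CDH18 (0.793 to 2.68), CDH13 (0.661 to 2.37) and CDH12 (0.528 to 2.19), described below. Intron 2 of CDH4, which makes up 71.0% of the gene, held 9 of the 10, and 8 of those 9 were tandem repeats with shifts from 24 to 93 nt. The peak printed above, chr20:61492138-61492225, matched itself at 93.8% of the bases compared after a shift of 24 nt. It had a score of 73.3 and shared 70 nt with a SATB1 vehicle peak of score 52.2. The score is 10 times the −log10 p of the peak caller and ranks peaks within a list.

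CDH15 (M-cadherin, of skeletal muscle) stood out by density. It is 23.8 kb long and held 4 peaks of 82-kDa ChAT and 1 of SATB1 after vehicle treatment, where 0.168 was expected over the 4 lists, and no peak of either protein after Aβ-exposure. Intron 5, of 2.10 kb, held 4 of the 5 in an array with a unit of 33 nt, and the fifth peak lay in intron 7. The 3 ChAT peaks of intron 5 had scores of 106, 67.6 and 58.4, and the first 2 of them overlapped the SATB1 peak of 567 nt by 263 and 212 nt. Between 34.1% and 66.2% of the 51-mers in these 4 peaks occur more than once in the genome. CDH3 (P-cadherin) had 1 peak of each protein after Aβ-exposure, and CDH1 (E-cadherin) and CDH2 (N-cadherin), the best known members of the type, had none in any list.

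The type II classical cadherins, several of which are expressed in distinct sets of neurons, held 34 peaks where 28.0 were expected (ratio 1.21, 0.840 to 1.70). CDH18, a brain cadherin gene of 1105 kb on chromosome 5, had the highest count of all members, with 5 peaks of 82-kDa ChAT after vehicle treatment, 4 after Aβ-exposure, 1 of SATB1 after vehicle treatment and 2 after Aβ-exposure, compared to 7.81 expected. Only 8 of the 20033 protein-coding genes had more peaks, a rank that does not allow for length. None of its 12 peaks was a tandem repeat. Unlike CDH4, it held its peaks across introns 2, 3, 5 and 6 and in sequence before the start of its MANE transcript, the reference transcript of the gene.

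Both overlaps found in CDH18 were in single-copy sequence outside tandem repeats. In intron 2, the 82-kDa ChAT peak after Aβ-exposure lay wholly within the SATB1 peak after Aβ-exposure, chr5:19914468-19914603, with 129 nt shared. Their scores were 92.3 and 113, and 113 was the highest score of any member peak in that SATB1 list. The stretch is 73.5% A+T and is bounded by inverted arms of 16 nt. In intron 3, the 82-kDa ChAT peak after vehicle treatment, chr5:19803325-19803469 with a score of 69.9, shared 142 nt with the peak after Aβ-exposure, with a score of 67.1, and the stretch is bounded by inverted arms of 12 nt. This was the only site in the 48 loci where a peak of 82-kDa ChAT was found after both treatments.

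CDH12, another brain cadherin of 1103 kb on the same chromosome, had 2 peaks of 82-kDa ChAT after each treatment, 1 of SATB1 after vehicle treatment and 4 of SATB1 after Aβ-exposure, compared to 7.80 expected. Of the 4 SATB1 peaks after Aβ-exposure, 3 matched Alu, the most common short interspersed repeat of the human genome, and the fourth had 81.9% of its 51-mers in more than 1 copy. CDH5 (VE-cadherin, of endothelial junctions) is 38.1 kb long and had 1 peak of each protein after vehicle treatment, where 0.270 was expected over the 4 lists. Its SATB1 peak, chr16:66380205-66380329 with a score of 75, lay inside the ChAT peak with a score of 107, in a repeat with a unit of 45 nt. CDH8 had 2 ChAT peaks and 1 SATB1 peak after vehicle treatment and none after Aβ-exposure, where 2.76 were expected.

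CDH11 (OB-cadherin, of mesenchymal cells) and CDH20 had 1 peak of 82-kDa ChAT after each treatment at separate places, and none of SATB1. The vehicle peak in CDH11 intron 1, 57 nt long, had a score of 168, the highest of all member peaks. CDH6, CDH7, CDH19 and CDH22 had 1 peak each, and CDH9, CDH10 and CDH24 had none.

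Of the other cadherins, CDH13 (T-cadherin, which is held in the membrane by a lipid anchor and has no cytoplasmic tail) had 6 peaks of 82-kDa ChAT after vehicle treatment, 2 after Aβ-exposure, 1 of SATB1 after vehicle treatment and 2 after Aβ-exposure, compared to 8.30 expected. Intron 8, which is 5.81% of the gene, held 4 of the 11 peaks in 1 array with a unit of 43 nt. The SATB1 peaks after vehicle treatment and after Aβ-exposure shared 312 nt there, with scores of 65.0 and 74.8, the only site in the 48 loci where SATB1 had a peak after both treatments. The 2 ChAT vehicle peaks of the array, with scores of 97.7 and 84.7, ended 336 and 163 nt before the SATB1 vehicle peak.

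CDH23 and PCDH15, whose products join to form the tip links of inner-ear hair cells, differed in their counts. CDH23, of 419 kb, had 2 peaks of 82-kDa ChAT after vehicle treatment and 1 after Aβ-exposure, with 2.96 expected over the 4 lists. PCDH15, of 1825 kb and the longest member, had 1 peak, of SATB1 after Aβ-exposure with a score of 60.8, and 12.9 were expected. That peak matched Alu, with 100% of its 51-mers in more than 1 copy. CDH16, CDH17 and CDH26 had 1 peak each.

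The low count in PCDH15 was rare for a gene of its length. Among 323 protein-coding genes over 500 kb, the median ratio of observed to expected peaks was 0.779 (quartiles 0.498 and 1.13), and 10 genes had a lower ratio than the 0.0774 of PCDH15. PCDH11Y, on the Y chromosome, is among these 10 genes. Of 71 genes over 1 Mb, PCDH15 was the only 1 with 0 or 1 peak. PCDH9, of 928 kb, followed with 1 peak where 6.56 were expected, and 11 of the 323 genes had a lower ratio. At the other end, 14 of the 323 had a higher ratio than CDH4 (2.05) and 35 a higher ratio than CDH18 (1.54). Of 51-mers sampled along PCDH15 and PCDH9, 96.1% and 97.3% occur once in the genome. Their bodies are 65.4% and 65.3% A+T, compared to 65.1% in CDH18 and 58.2% over all protein-coding gene bodies. Whether either property is related to the low counts was not tested.

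**Figure D3:**
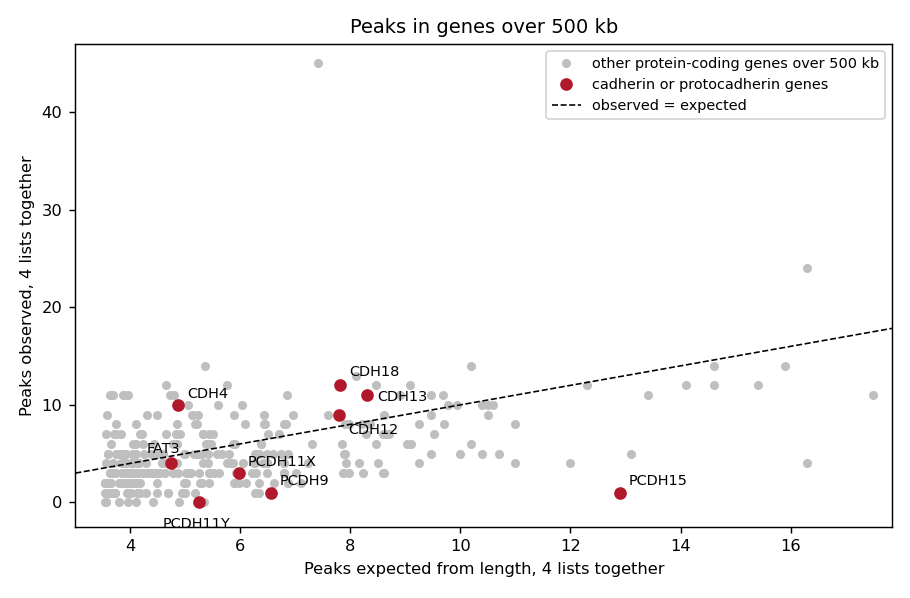
Peaks observed (y axis) against peaks expected from length (x axis), both summed over the 4 lists, for 323 protein-coding genes over 500 kb, with the 9 member genes in red. The dashed line marks equal numbers, and PCDH15 lies at 1 observed and 12.9 expected while CDH4 lies at 10 observed and 4.87 expected.

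PCDH11X and its Y-linked copy PCDH11Y, delta protocadherins of the brain, need separate treatment because their sequences are nearly the same. Only 49.1% of 51-mers sampled in PCDH11X and 42.9% in PCDH11Y occur once in the genome. PCDH11X had 2 peaks of 82-kDa ChAT after Aβ-exposure and 1 of SATB1 after vehicle treatment, with 5.97 expected, and PCDH11Y had 0, with 5.25 expected. Whether the cells carry a Y chromosome was not examined here, so the 0 of PCDH11Y cannot be read as a low count. Of the 3 PCDH11X peaks, 2 were multi-copy. Without PCDH11Y, the protocadherin loci held 11 peaks where 34.3 were expected (ratio 0.321). Without both genes, the protocadherin loci held 8 peaks where 28.3 were expected (ratio 0.282, 0.122 to 0.556), and without PCDH15 they held 10 where 26.7 were expected (ratio 0.375, 0.18 to 0.690). Densities of the same chromosome, of the same length class and of single-copy bases were also used in place of the overall density. In that order, the ratio of all protocadherin loci was 0.343, 0.310 and 0.318. Without PCDH11X and PCDH11Y it was 0.325, 0.312 and 0.275, and without PCDH15 it was 0.493, 0.413 and 0.468.

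Of the other delta protocadherins, which steer the wiring of neural circuits, PCDH7, of 426 kb, had 1 peak of 82-kDa ChAT and 2 of SATB1 after Aβ-exposure and 3.02 expected. PCDH1, PCDH8, PCDH10, PCDH17, PCDH18 and PCDH19 had no peak, where their expected numbers ranged from 0.0407 to 0.839 and summed to 2.27, so these counts carry little information. PCDH12 and PCDH20, protocadherins outside the clusters, also had no peak, where 0.185 and 0.0436 were expected.

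The 3 clustered loci lie side by side on chromosome 5 and held 3 peaks where 3.35 were expected (ratio 0.894, 0.184 to 2.61), all of SATB1. PCDHA had 1 after Aβ-exposure, inside the introns of 14 of its genes and matching Alu. PCDHG had 1 after vehicle treatment, with a score of 51.3 and 1270 nt upstream of PCDHGA3, one of its genes, and 1 after Aβ-exposure, with a score of 69.5. PCDHB had no peak in a gene body, but a ChAT vehicle peak with a score of 73.5 lay 370 nt upstream of PCDHB5.

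Of the large cadherins, FAT3, a gene of 672 kb with a role in the shape of retinal neurons, had 1 peak of 82-kDa ChAT after vehicle treatment and 3 after Aβ-exposure, with 4.75 expected over the 4 lists, and none of SATB1. DCHS2 had 2 peaks of 82-kDa ChAT after Aβ-exposure, 1 of them with a score of 93.7, the highest of any member peak in that list. FAT1 had 1 ChAT peak after vehicle treatment and 1 SATB1 peak after Aβ-exposure. CELSR1 had 1 SATB1 peak after each treatment, and the vehicle peak, in intron 5, had a score of 113, the highest member score of its list. CELSR2, FAT2 and FAT4 had 1 peak each, and CELSR3 and DCHS1 had none in the gene body, although a ChAT vehicle peak with a score of 63.5 lay 698 nt upstream of DCHS1.

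**Figure D4:**
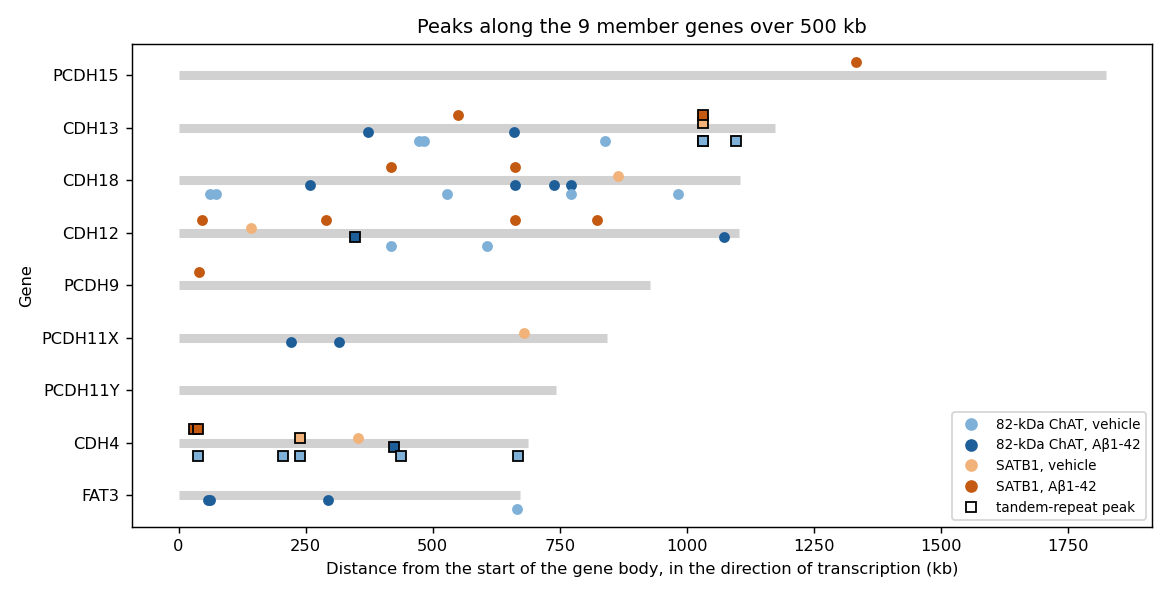
Peaks along the 9 member genes over 500 kb, by distance from the start of the gene body in the direction of transcription (x axis, kb). Colours give protein and treatment, grey bars the gene bodies and black squares tandem-repeat peaks. The 8 tandem-repeat peaks of CDH4 intron 2 lie between 30.8 and 437 kb, some of them at the same sites. In CDH13, 4 of the peaks fall together in intron 8, and PCDH15 carries a single peak over 1825 kb.

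Of the 92 member peaks, 78 fell in introns of the MANE transcript, 39 of them in intron 1 or 2, and 7 fell in the gene body outside that transcript. For the 89 peaks outside the clustered loci, the median distance from the MANE start was 162 kb, and 3 of them lay within 10 kb of it, the nearest at 5.3 kb in FAT1. The PCDHG peak upstream of PCDHGA3 was the only member peak that touched the 2000 nt upstream of a protein-coding gene. It was 1 of the 12 SATB1 vehicle peaks (8.33%, 0.211 to 38.5), compared to 0.682% in other genes. A total of 8 peaks touched an exon of any transcript and 2 a coding exon, namely exon 57 of CDH23 (82-kDa ChAT, vehicle) and exon 14 of CDH16 (SATB1, Aβ-exposure). The share of member peaks touching an exon was 11.8% and 4.17% for 82-kDa ChAT and 16.7% and 4.55% for SATB1, vehicle first, compared to 9.20%, 9.29%, 8.18% and 4.99% in other genes. A coding exon was touched by 2.94% of ChAT vehicle member peaks and 4.55% (0.115 to 22.8) of SATB1 member peaks after Aβ-exposure. In other genes these shares were 4.27% and 0.801%. The remaining lists had 0 such member peaks. Their shares in other genes were 4.38% for 82-kDa ChAT after Aβ-exposure and 3.41% for SATB1 after vehicle treatment. The ChAT vehicle peaks of FAT2 and FAT3 in their last exons, 24 and 28, touched no coding base.

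The loci with a peak were compared between treatments and between proteins. For 82-kDa ChAT, 8 loci had a peak after both treatments, 7 after vehicle treatment and not after Aβ-exposure, and 7 the reverse. For SATB1 these numbers were 6, 5 and 9. Length alone, with peaks placed independently, would give 9.37 and 5.49 loci with a peak after both treatments, and 3.29% and 1.59% of all protein-coding genes had one. Both proteins had a peak in 7 loci after vehicle treatment (CDH4, CDH5, CDH8, CDH12, CDH13, CDH15 and CDH18) and in 6 after Aβ-exposure (CDH3, CDH4, CDH12, CDH13, CDH18 and PCDH7), where length alone would give 5.45 and 9.43. Long genes hold more peaks of every list, and peaks and length were related across the 48 loci (Spearman's rho from 0.326 to 0.527 over the lists). CDH4, CDH12, CDH13 and CDH18 had a peak in all 4 lists.

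At the level of sites, 8 pairs of peaks from different lists overlapped by at least 1 nt, in 5 genes, and 6 of the 8 pairs were tandem repeats in CDH4, CDH5, CDH13 and CDH15. The proteins shared most after vehicle treatment, where 4 of 34 ChAT peaks (11.8%) overlapped 3 of 12 SATB1 peaks (25%), compared to 9.31% and 24% over all protein-coding genes. All of these member overlaps were tandem repeats, and over all protein-coding genes 26.0% of the overlapping ChAT peaks were. Between treatments, 1 of 34 ChAT vehicle peaks (2.94%, compared to 2.89% over all genes) and 1 of 12 SATB1 vehicle peaks (8.33%, compared to 0.770%) overlapped a peak of the same protein after Aβ-exposure. No ChAT member peak after Aβ-exposure overlapped a SATB1 vehicle peak, and over all protein-coding genes 0.854% of these ChAT peaks and 2.21% of these SATB1 peaks did.

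With all peaks, member counts went in opposite directions after Aβ-exposure. The ratio of Aβ to vehicle was 0.706 (0.40 to 1.23) for 82-kDa ChAT and 1.83 (0.869 to 4.06) for SATB1, and over all protein-coding genes it was 0.987 and 2.67. Member peaks therefore made up 1.25% of the gene peaks of 82-kDa ChAT after vehicle treatment compared to 0.891% after Aβ-exposure, and 1.16% compared to 0.794% for SATB1. The intervals of these shares overlap within each protein. Without tandem-repeat peaks the ChAT ratio was 1.10, compared to 1.17 over all protein-coding genes. The SATB1 ratio was 0.917 without Alu-matching peaks and 0.889 without multi-copy peaks, compared to 0.870 and 1.32 over all protein-coding genes, so neither direction held under every choice of peaks. A difference between treatments cannot be told apart from a difference between 2 libraries, whose separate depths are not given in the sources used here.

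The SATB1 list after Aβ-exposure differed from the rest in its Alu content. In it, 11 of 22 member peaks matched Alu (50%, 28.2 to 71.8), compared to 69.2% of its peaks in other genes, while the other lists had 0 member peaks matching Alu, compared to 5.26% to 10.4% in other genes. Multi-copy peaks are those where more than 50% of 51-mers occur more than once. They were 63.6% of member peaks in that list and between 8.33% and 25% in the others. In other genes these shares were 58.6% and between 8.88% and 16.2%. Without Alu-matching peaks, 11 SATB1 peaks remained after Aβ-exposure and the observed over expected ratio was 1.19 compared to 0.737 with all peaks.

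**Figure D5:**
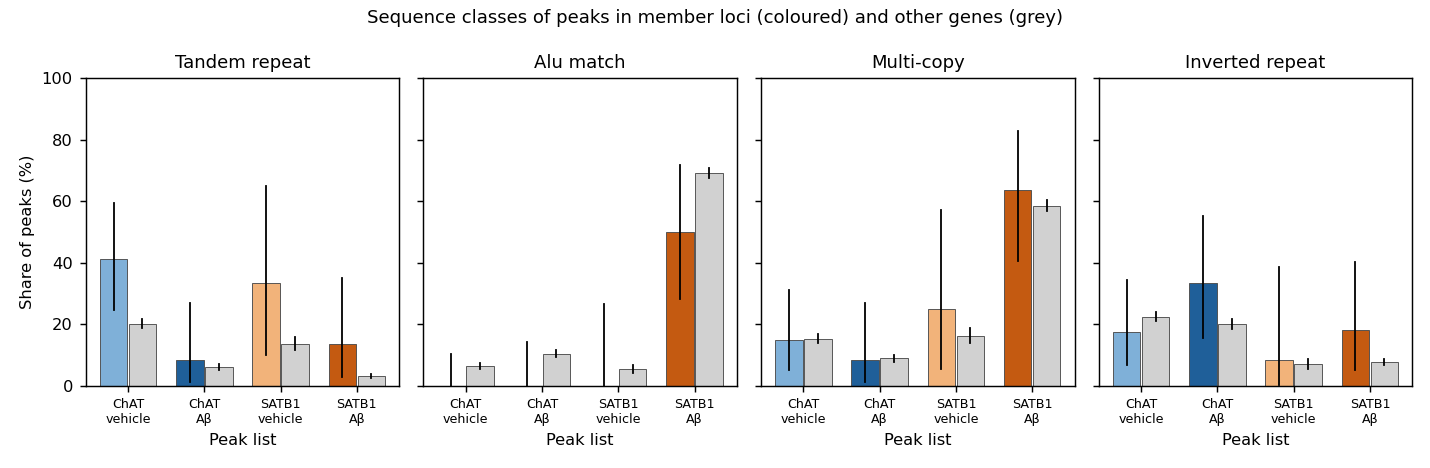
Share of peaks (y axis, %) that are tandem repeats, match Alu, are multi-copy or hold an inverted repeat, for member loci (coloured bars) and other protein-coding genes (grey bars) in each list. Black lines are exact 95% binomial intervals for counting error, and a class can overlap another. Tandem repeats reach 41.2% of ChAT member peaks after vehicle treatment, and Alu matches 50% for SATB1 after Aβ-exposure.

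Inverted repeats with arms of at least 10 nt were found in 6 of 34 (17.6%) and 8 of 24 (33.3%, 15.6 to 55.3) ChAT member peaks, vehicle first, compared to 22.4% and 20% in other genes. For SATB1 they were found in 1 of 12 (8.33%) and 4 of 22 (18.2%, 5.19 to 40.3), compared to 7.01% and 7.53%. Each interval includes the share in other genes. An A/T-rich stretch around a single C, the kind of sequence that SATB1 is known to favour, was present in 52.9% to 70.8% of member peaks across the lists compared to 59.3% to 69.1% in other genes. Member gene bodies are 61.1% A+T and all protein-coding gene bodies 58.2%.

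Catenins and other genes linked to cadherins were not richer in peaks. The list held 24 genes, namely catenins, desmosomal cadherins, cadherin-related genes, calsyntenins and RET, and 11 of them had a peak in any list, beside 26.9% of all protein-coding genes, with 28 peaks where 43.7 were expected. The 8 genes of the catenin group had 21 peaks where 34.1 were expected. CTNNA2 and CTNNA3, the long α-catenin genes of brain and heart, had 5 each where 10.4 and 13.1 were expected, and CTNND2, the neuronal δ-catenin, had 5 where 6.60 were expected. Single lists touched from 4 to 8 of the 24 genes (16.7% to 33.3%), beside 4.83% to 12% of all protein-coding genes. These shares of genes, unlike the expected numbers of peaks, do not allow for length.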

How the data were processed

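Per the labels, chromatin from SH-SY5Y cells was immunoprecipitated with antibodies to SATB1 or to the C-terminus of ChAT, which shorter ChAT forms share. Reads were aligned to hg38 with BWA, and the paper states that repeat-masking was used. The authors called peaks with MACS and left out significant peaks also found in the matching input. The lists still hold peaks in tandem repeats, Alu matches and multi-copy sequence. Each deposited list gives a peak's position and a score, which is 10 times −log10 of the caller's p-value; the lowest scores lie at the threshold of 50. Tool versions and the separate depth of each library are not given in the sources used here, and the paper gives only a range of reads per sample. The inputs were not analysed here. Peaks on chromosomes 1 to 22, X and Y (7460 and 6345 of 82-kDa ChAT, 2884 and 5857 of SATB1, vehicle first) were joined to GENCODE 44 gene bodies; those touching protein-coding genes (2729, 2693, 1039 and 2770) set the density for expected numbers, with undetermined bases left out.

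Alu matches came from blastn 2.17.0 against the related RNA gene RN7SL1 (e-value 1e-05), which misses short fragments. Multi-copy shares came from 51-mers of hg38, tandem repeats from self-matching, and inverted repeats from exact arms. Intervals are exact Poisson or Clopper-Pearson with scipy 1.17.1; the interval of a ratio of treatments comes from the binomial share. The counting was tested on simulated data. The members and gene lists were chosen with earlier results of these data known. Genes were named by class, most and fewest peaks against expectation, overlaps, exons, promoters and top scores; the remaining members are named for completeness. Alternatives covered the score, the place of the peak, upstream sequence, repeats, background density and the richest locus; tandem repeats, single-copy density, PCDH11Y and the family split were added after seeing the data.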

Additional observations from a re-analysis of the deposited data

Results flagged for a closer look

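The ratio of Aβ to vehicle peak counts in the 48 loci stood out because it lay below 1 for 82-kDa ChAT, at 0.706 (34 and 24 peaks, vehicle first), and above 1 for SATB1, at 1.83 (12 and 22 peaks). The difference between the proteins was not tested, since there was 1 library for each protein and treatment. With all peaks, both ratios lay below those of the same lists over all protein-coding genes, 0.987 and 2.67. The directions turned when classes of peaks were left out, to 1.10 for 82-kDa ChAT without tandem-repeat peaks, and to 0.917 and 0.889 for SATB1 without Alu-matching and without multi-copy peaks. Over all protein-coding genes the ratios under these choices were 1.17, 0.870 and 1.32, so without Alu-matching peaks the ratio in the 48 loci lay above that of all genes.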

How the results depend on the processing

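Of 129 values recomputed under alternatives, 125 stayed within the counting interval of the reported value or, for counts, within 1.5 times of it. The 4 others were as follows. Without Alu-matching peaks, observed over expected for SATB1 after Aβ-exposure was 1.19. With the lower-scoring part of each list (below its median) left out, the share of loci with a peak was 12.5% for 82-kDa ChAT after Aβ-exposure and 10.4% for SATB1 after vehicle treatment; such a filter removes peaks by construction. Without tandem-repeat peaks, the CDH genes had an observed over expected ratio of 1.03. Across alternatives this ratio ranged from 1.03 to 1.73 for the CDH genes and from 0.241 to 0.343 for the protocadherin loci. Leaving out PCDH15 was not among these alternatives. It gave the protocadherin loci a ratio of 0.375 (0.18 to 0.69), and of 0.493 with the density of the same chromosome. For all 48 loci observed over expected ranged from 0.853 to 1.51 and from 0.607 to 0.932 for 82-kDa ChAT, vehicle first, and from 0.828 to 1.15 and from 0.580 to 1.19 for SATB1. The ratio of Aβ to vehicle ranged from 0.450 to 1.10 for 82-kDa ChAT and from 0.889 to 2.38 for SATB1. No paired analysis was possible because each group had 1 library and no result came from a test. Without replicates or the read depth of each library, intervals cover counting error only, and overlapping or neighbouring peaks are not independent counts.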
